A study of Mus musculus with 4 samples.

Results

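The receptors that bind the constant part of IgE and IgG were followed through a single-cell survey of mouse lung immune cells, as the 8 genes Fcer1a, Ms4a2, Fcer1g, Fcer2a, Fcgr1, Fcgr2b, Fcgr3 and Fcgr4 among the 31053 genes of the count tables. They were picked by symbol, and all 8 were found once in each table. Unique molecular identifiers (UMIs, the count of captured RNA molecules) were read in basophil-type barcodes, myeloid, NK and B cells, and compared by genotype and by treatment.

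The high-affinity IgE receptor is built from an alpha chain that holds IgE (Fcer1a), a beta chain that amplifies the signal (Ms4a2) and a dimer of the gamma chain (Fcer1g), and in mice it arms mast cells and basophils for allergen. The gamma chain carries an ITAM, a tyrosine motif that recruits kinases, and also serves the activating IgG receptors Fcgr1, Fcgr3 and Fcgr4 of macrophages, monocytes, neutrophils and NK cells. Fcgr2b carries an inhibitory motif in place of a signalling partner and restrains B cells and myeloid cells, while Fcer2a (CD23) is a lectin-like low-affinity IgE receptor of B cells.

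The 4 libraries came from the lungs of C57BL/6 mice, from live cells sorted as CD45.2+ and 7-AAD-, with 1 library for each combination of genotype and treatment. Mice labelled WT were Ift20 f/f, and mice labelled KO were Ift20 f/f CD4 cre, so that all groups carried the floxed allele of Ift20, a carrier protein of intraflagellar transport, and the deletion was driven from the CD4 promoter in developing T cells. Papain, a protease allergen from papaya, was given intranasally at 25 µg on consecutive days, given again on day 14, and lungs were taken on day 15. The other libraries are labelled DPBS, the saline. The libraries are named by treatment and genotype, and 4 values given together without names follow the order DPBS WT, Papain WT, DPBS KO, Papain KO. The sources do not say how many mice made up each library. The study's methods name male mice some weeks old, and the labels give no age of their own. With 1 library a group, no difference between groups was tested. All intervals cover counting error only.

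Of the members, 5 lie on chromosome 1 of GRCm38, the build of the files. Fcgr2b (chr1:170958617-170976547, minus strand), Fcgr4 (chr1:171018920-171029761, plus strand), Fcgr3 (chr1:171051174-171064935, minus strand) and Fcer1g (chr1:171229572-171234365, minus strand) span 275.7 kb, and Fcer1a stands apart at chr1:173221284-173227214, minus strand. Fcgr1 is at chr3:96282909-96293969, Fcer2a at chr8:3681737-3694175 and Ms4a2 at chr19:11615523-11623719, all on the minus strand. Fcgr2b overlaps the antisense gene Gm38204 in exons, on the other strand. No run of 31 bases was shared between members in the last 500 bases of their transcripts, the part that 3′ reads come from, so reads of one receptor were not shared with another there.

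The 250 bases before the annotated start are printed for 4 members with unlike patterns over cells: Fcer1a and Ms4a2, found in mast-type and basophil-type barcodes, Fcer1g, found in all myeloid and NK cells, and Fcgr4, highest in nonclassical monocyte-like cells. They are RefSeq windows on GRCm38.p6, written 5′ to 3′ on the strand of the gene, at chr1:173227230-173227479, chr19:11623720-11623969, chr1:171234350-171234599 and chr1:171018676-171018925. Capitals mark matches on either strand to the GATA spelling AGATAA, with T also allowed as its first base and G as its last, or to GAGGAA, a core of PU.1 sites, and no marked match overlaps another.
Fcer1a: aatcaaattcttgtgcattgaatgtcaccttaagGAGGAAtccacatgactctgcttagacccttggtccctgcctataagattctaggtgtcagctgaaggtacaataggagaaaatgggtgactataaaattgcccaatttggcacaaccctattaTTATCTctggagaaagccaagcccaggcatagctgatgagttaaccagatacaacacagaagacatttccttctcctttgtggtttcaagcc
Ms4a2: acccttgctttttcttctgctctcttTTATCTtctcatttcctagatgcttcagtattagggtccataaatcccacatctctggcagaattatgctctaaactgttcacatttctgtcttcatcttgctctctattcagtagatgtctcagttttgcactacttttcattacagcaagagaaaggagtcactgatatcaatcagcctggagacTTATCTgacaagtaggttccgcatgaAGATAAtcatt
Fcer1g: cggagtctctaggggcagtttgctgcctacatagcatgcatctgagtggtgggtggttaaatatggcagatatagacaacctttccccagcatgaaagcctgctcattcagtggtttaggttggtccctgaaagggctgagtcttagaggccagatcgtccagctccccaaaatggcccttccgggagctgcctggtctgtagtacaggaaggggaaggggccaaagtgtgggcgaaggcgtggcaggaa
Fcgr4: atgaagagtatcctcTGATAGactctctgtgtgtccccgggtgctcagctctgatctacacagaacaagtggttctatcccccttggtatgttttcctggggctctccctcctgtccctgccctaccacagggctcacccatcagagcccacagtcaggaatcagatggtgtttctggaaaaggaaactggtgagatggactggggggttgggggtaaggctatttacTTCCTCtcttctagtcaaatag

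The Ms4a2 window held AGATAA 3 times, 224, 37 and 11 bases before the start, the first pair on the opposite strand. Of 32851 windows of the same length, 9.99% held AGATAA at all and 0.088%, or 29 windows, held it at least 3 times. The Fcer1a window held AGATAA once, 92 bases before the start on the opposite strand, and GAGGAA once, at 216. The Fcgr4 window held TGATAG at 235 and GAGGAA at 22. Fcer1g and Fcgr2b held neither motif, against 26.54% of all windows with a GATA spelling and 23.25% with GAGGAA. Of the members not printed, Fcgr1 held GAGGAA at 55 and the Fcgr3 windows held it at 6 and at 15, with no GATA spelling. Windows of the B cell gene Fcer2a held AGATAG at 10 and at 243, and another of its windows held neither motif. These matches are a description of the letters alone.

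After removal of barcodes with few genes, with a high mitochondrial share or called doublets, 25909 cells were kept, 5433 to 7587 a library from 53854420 to 75675956 total UMIs, with a median of 5842 to 6681 UMIs per cell. Clusters were formed without the 8 genes and named from markers that do not include them, as 14 classes called X-like, and 4286 cells stayed unnamed. The libraries shared 7 to 16 barcodes in each pair. Defining markers stood in the named classes: Cd79a, part of the B cell receptor, in 99.9% of B-like cells against 8.27% of the others, Ncr1 in 85.6% of NK-like cells against 0.231%, and Treml4 in 87.6% of nonclassical monocyte-like cells against 8.28%. Ift20 stood at 54.1 and 51.4 counts per 1000000 UMIs (CPM) in T-like cells of DPBS WT and Papain WT, and at 24.3 and 18.8 CPM in those of DPBS KO and Papain KO, and the 3′ UMIs need not cover the removed part.

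The alpha and beta chains of the IgE receptor, Fcer1a and Ms4a2, were nearly confined to a handful of barcodes with mast cell or basophil genes, and no cluster was basophil-like or mast-like. Among the 27544 barcodes that passed the gene and mitochondrial limits, doublet calls included, 7 had UMIs of at least 2 of the basophil genes Mcpt8, Prss34, Cd200r3 and Cyp11a1 and are called basophil-type. A further 7 had UMIs of at least 2 of the mast cell protease genes Cma1, Mcpt4, Tpsb2 and Tpsab1 and are called mast-type. Each kind made up 0.0254% of barcodes (exact 95% binomial interval 0.0102 to 0.0524%). Of the mast-type barcodes, 6 also held a UMI of Prss34, Cd200r3 or Cyp11a1, and the basophil gate fixed at the outset alone took 12 barcodes, 5 of them mast-type. The split between them was set after the data were seen.

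Over these 27544 barcodes, Fcer1a had 83 UMIs in 14 barcodes, and 79 of them, or 95.2%, were in the gated barcodes. Outside were 1 UMI in a doublet call of DPBS WT and 3 in an ILC2-like cell of Papain WT. Ms4a2 had 28 UMIs in 11 barcodes, all of them gated. By library Fcer1a had 10 UMIs in DPBS WT and 6 in Papain WT, and 2 in DPBS KO and 65 in Papain KO, and Ms4a2 had 5, 3, 0 and 20. Papain KO was highest for both, with 3 basophil-type and 3 mast-type barcodes, and a single mast-type barcode of 9905 UMIs held 32 of its Fcer1a UMIs and 7 of its Ms4a2 UMIs. The shares of gated barcodes were 0.0614% in DPBS WT against 0.0250% in Papain WT, and 0.0175% in DPBS KO against 0.105% in Papain KO (0.0386 to 0.229%). Their binomial intervals overlapped for every pair of libraries.

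The basophil-type barcodes held 0 to 7 UMIs of Fcer1a, with 3, 0 and 2 in DPBS WT, 3 in Papain WT and 5, 7 and 3 in Papain KO, and none was found in DPBS KO. The mast-type barcodes held 2 and 2 in DPBS WT, 0 in Papain WT, 2 in DPBS KO and 10, 8 and 32 in Papain KO. Summed over the 4 libraries, Fcer1a reached 463 CPM (exact Poisson interval 294 to 695) in basophil-type and 1890 CPM (1428 to 2454) in mast-type barcodes. Ms4a2 reached 262 CPM (140 to 448) and 506 CPM (283 to 835). The intervals of Ms4a2 overlapped, and those of Fcer1a did not, but 50 of the 56 mast-type Fcer1a UMIs came from Papain KO. Without that library Fcer1a read 283 CPM (122 to 557) in basophil-type and 548 CPM (201 to 1193) in mast-type barcodes, with overlapping intervals. Of the 7 basophil-type barcodes, 5 were doublet calls, against 1 of the 7 mast-type barcodes. Doublet calls took a fixed share of each library by score, so a call need not mark a mixed cell. B cell genes were seen in one of these 5 calls, with 27 UMIs of Cd79a, and T cell genes in another, with 2 UMIs of Cd3e.

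Hdc, which makes histamine, was present in all 14 gated barcodes, with 4 to 39 UMIs. Fcer1g was also in all 14, at 1007 CPM (748 to 1328) in basophil-type and 2464 CPM (1931 to 3098) in mast-type barcodes. Among the IgG receptors, Fcgr3 stood at 302 CPM (169 to 499) and 236 CPM (94.99 to 487), and the inhibitory Fcgr2b had 9 UMIs in 5 of the basophil-type barcodes and 1 UMI in the mast-type ones. Fcgr1 and Fcgr4 had no UMI in any gated barcode, which allows up to 46.5 CPM at the upper bound of the exact interval. Fcer2a had 3 UMIs, all in 1 basophil-type barcode.

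**Figure D1:**
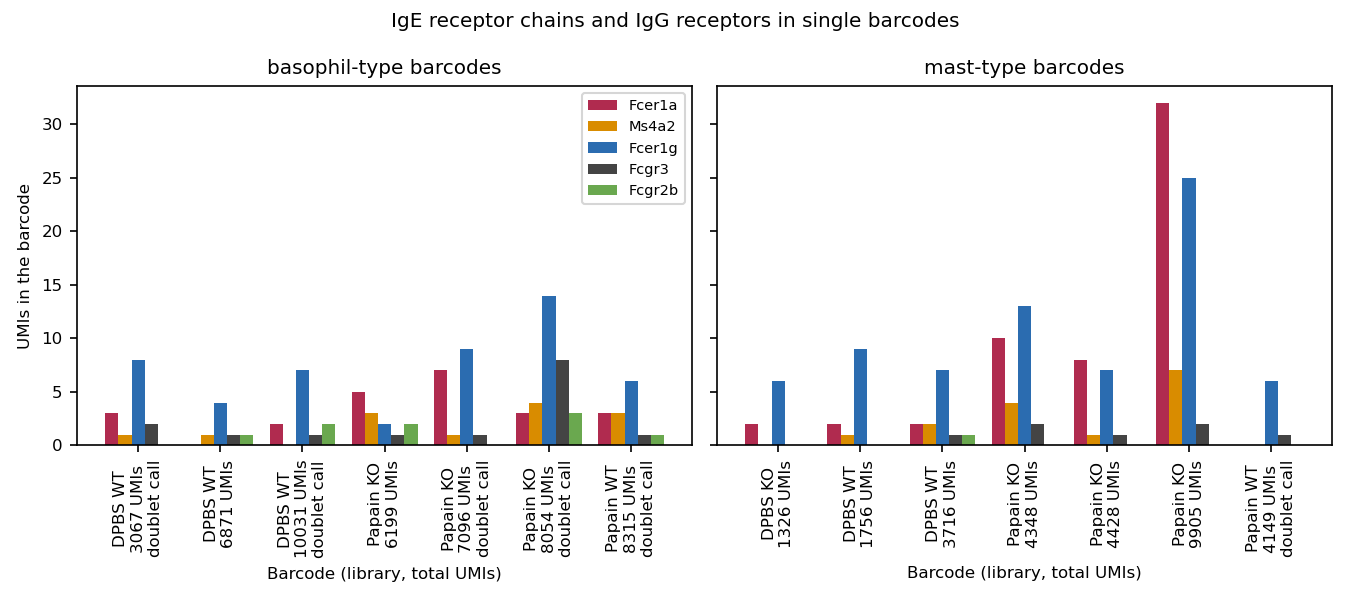
UMIs of Fcer1a, Ms4a2, Fcer1g, Fcgr3 and Fcgr2b (bars, linear axis from 0) in each of the 7 basophil-type and 7 mast-type barcodes, labelled by library, total UMIs and doublet call. Fcer1a and Ms4a2 are highest in the mast-type barcode of Papain KO with 9905 UMIs, and DPBS KO has 1 barcode.

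Outside these barcodes Fcer1a and Ms4a2 were at 0 in nearly every class. In the kept cells Fcer1a had no UMI in 7554 B-like, 4979 T-like, 4257 alveolar macrophage-like, 1355 classical monocyte-like, 1295 nonclassical monocyte-like, 815 neutrophil-like or 375 NK-like cells, where the upper bounds ran from 0.0465 CPM in alveolar macrophage-like to 1.72 CPM in NK-like cells. In ILC2-like cells Fcer1a read 6.26 CPM in DPBS WT, 4.99 in Papain WT, then 0 in DPBS KO and 110.3 in Papain KO, and this class held 4 of the mast-type barcodes. Without them the 4 libraries read 0, 4.99, 0 and 0 CPM. The class put 4 calls past the fold upward, Fcer1a and Fcer1g for papain in KO and for KO against WT after papain, and none of them was left without the gated barcodes. Fcer1g in the same class went from 43.9, 8.31, 17.5 and 115 CPM to 22.2, 8.31, 17.5 and 16.1 CPM.

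Fcer1g, the shared signalling chain, was the most abundant member, with 276500 UMIs in the kept cells. UMIs count captured molecules whatever the length of the transcript. How well each transcript was captured was not measured, so comparisons of level between genes are approximate. Classes with at least 20 cells in 3 or more libraries could be put in order. Nonclassical monocyte-like cells had 4119 CPM in DPBS WT and 4036 in Papain WT, and 4045 in DPBS KO and 4024 in Papain KO. Classical monocyte-like cells, with 2776 to 3153 CPM, came next, and NK-like cells followed with 2146 to 2357 CPM. Alveolar macrophage-like (1894 to 2044 CPM) and neutrophil-like cells (1812 to 1999 CPM) overlapped between libraries, as did interstitial macrophage-like (1279 to 1416 CPM) and cDC2-like cells (1013 to 1380 CPM). The cDC1-like cells stood clear below, at 253 to 360.4 CPM, and down to them no other neighbours in the order overlapped. Below it, ILC2-like (8.31 to 115 CPM), T-like and B-like cells overlapped. NK-like cells stood above macrophage-like cells in every library while their IgG receptors were scarce, with 38.7 Fcer1g UMIs for each UMI of Fcgr1, Fcgr3 and Fcgr4 together, against 4.62 in nonclassical monocyte-like and 5.10 in alveolar macrophage-like cells.

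T-like and B-like cells, most of which are not known to use Fcer1g, give a level to read the others against. Fcer1g stood at 15.0 to 26.2 CPM in T-like and at 15.1 to 23.6 CPM in B-like cells, and 10.0% and 8.71% of these cells had a UMI, against 99.7% of NK-like cells. Thinned to 1000 UMIs a cell, the shares were 1.95%, 2.15% and 89.1%. The T-like class included cluster 15.2, of 120 cells led by Tcrg genes, with 183 CPM of Fcer1g (279, 182, 154 and 78.1 CPM by library). In the main T-like clusters 3 and 4 Fcer1g read 14.9 to 18.4 CPM, with a UMI in 9.27% of cells, or 1.79% after thinning. Relative to the macrophage gene Lyz2, Fcer1g had 15.6 UMIs per 100 Lyz2 UMIs in B-like cells and 14.8 in these main T-like clusters, near the 13.9 of all cells together, while NK-like cells had 1914.

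**Figure D2:**
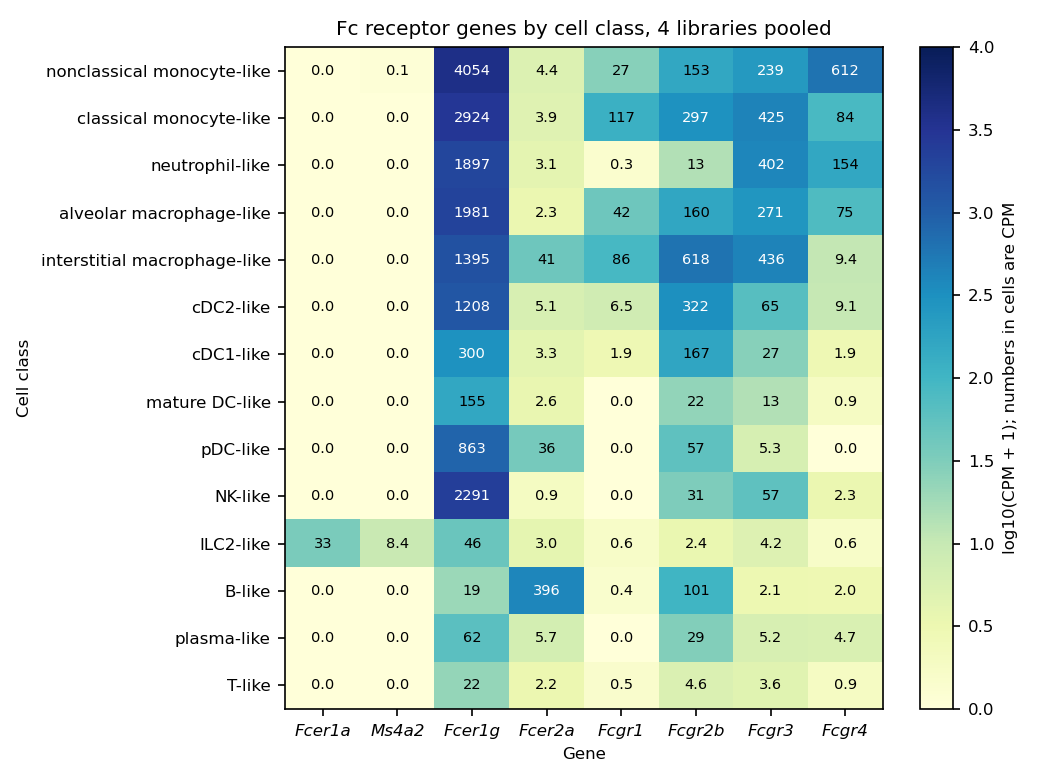
Level of each of the 8 genes (columns) in each of the 14 named classes (rows), pooled over the 4 libraries, coloured by log10(CPM + 1) with the CPM written in each cell. Fcer1g is above 1000 CPM in all monocyte-like, macrophage-like, neutrophil-like and NK-like classes, Fcer2a peaks at 397 CPM in B-like cells, and Fcer1a and Ms4a2 read 0 in most rows.

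The activating IgG receptors differed in the classes where they were highest. Fcgr4, which binds IgG2 antibodies, was highest in nonclassical monocyte-like cells, with 443 CPM in DPBS WT against 678 in Papain WT, and 582 in DPBS KO against 717 in Papain KO, and 83.6% of these cells had a UMI. Every library of this class stood above every library of the other classes in the order, and neutrophil-like cells came second at 145 to 160.3 CPM. Classical monocyte-like (70.6 to 102 CPM) and alveolar macrophage-like cells (61.8 to 88.3 CPM) overlapped. In T-like cells, Fcgr4 read 0.877 CPM over all libraries. NK-like cells had 5 UMIs, or 2.33 CPM (0.756 to 5.44).

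Fcgr1, the high-affinity IgG receptor, was highest in classical monocyte-like cells, with 151 CPM in DPBS WT, 143 in Papain WT, then 79.4 in DPBS KO and 73.6 in Papain KO. Both KO libraries were below both WT libraries there. The range overlapped that of interstitial macrophage-like cells, at 71.3 to 105 CPM, and both stood above alveolar macrophage-like cells, at 37.8 to 46.0 CPM, which gave 56.9% of all Fcgr1 UMIs from 4257 cells with a median of 18606 UMIs. Neutrophil-like cells had 1 UMI of Fcgr1, or 0.342 CPM (up to 1.91), and NK-like cells had none (up to 1.72 CPM).

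Fcgr3, the low-affinity activating receptor, was found in all the phagocytes. Interstitial macrophage-like cells had 366 to 499 CPM, classical monocyte-like cells 362 to 465 and neutrophil-like cells 331 to 450, and these 3 ranges overlapped. Alveolar macrophage-like (248 to 305 CPM) and nonclassical monocyte-like cells (195 to 288 CPM) followed and overlapped each other. NK-like cells, in which Fcgr3 is the receptor for antibody-dependent killing, read 47.0 CPM in DPBS WT and 62.8 in Papain WT, and 43.3 in DPBS KO and 78.5 in Papain KO, against 3.57 CPM in T-like cells over all libraries. A UMI of Fcgr3 was seen in 22.9% of NK-like and 2.27% of T-like cells, or 4.53% and 0.302% after thinning.

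Fcgr2b, the inhibitory receptor, was highest in interstitial macrophage-like cells, at 569.9 CPM in DPBS WT, 566 in Papain WT and 718 in Papain KO, and DPBS KO had under 20 such cells. The cDC2-like (293.0 to 349.9 CPM) and classical monocyte-like cells (261 to 339 CPM) came next and overlapped. The cDC1-like, alveolar macrophage-like and nonclassical monocyte-like cells formed the next overlapping band, at 167, 160.5 and 153 CPM over all libraries. B-like cells read 85.7 CPM in DPBS WT against 111 in Papain WT, and 97.0 in DPBS KO against 108 in Papain KO. NK-like cells, at 25.8 to 40.8 CPM, lay between them and T-like cells, at 1.63 to 8.09 CPM.

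The share of Fcgr2b among all IgG receptor UMIs of a class gives the balance of inhibitory and activating receptors in RNA, and protein was not measured. This share was 95.7% in B-like, 84.6% in cDC1-like and 80.1% in cDC2-like cells, 53.8% in interstitial macrophage-like, 32.2% in classical monocyte-like, 29.3% in alveolar macrophage-like and 14.9% in nonclassical monocyte-like cells, and 2.28% in neutrophil-like cells. In B-like cells the activating part rests on low levels, with Fcgr1 at 0.383, Fcgr3 at 2.15 and Fcgr4 at 2.02 CPM over all libraries. The activating remainder was led by Fcgr4 in nonclassical monocyte-like cells, with 59.4% of the UMIs, and by Fcgr3 in neutrophil-like cells, with 70.7%. In alveolar macrophage-like cells the Fcgr2b share was 24.4% in DPBS WT, 38.4% in Papain WT, then 26.0% in DPBS KO and 31.2% in Papain KO, and the exact binomial intervals of these 4 libraries did not overlap (23.7 to 25.1, 37.5 to 39.4, 25.2 to 26.8 and 30.1 to 32.3%). Both papain libraries were above both DPBS libraries.

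**Figure D3:**
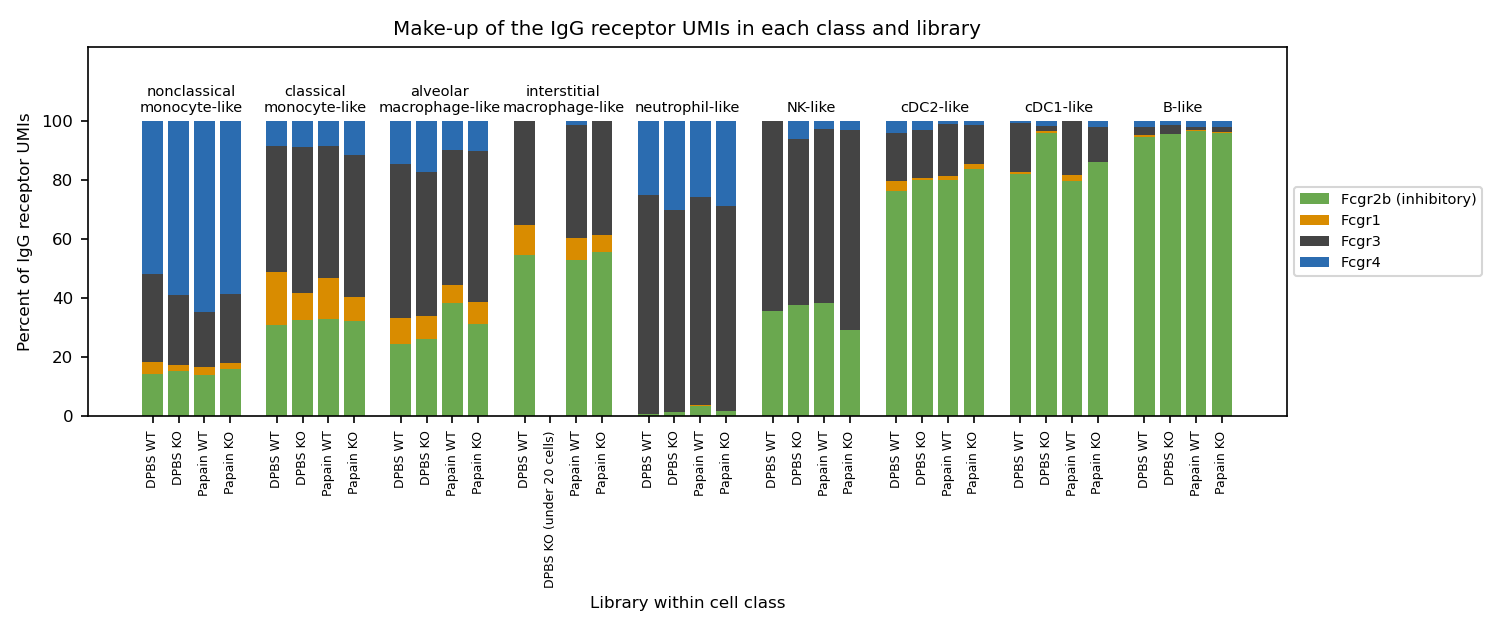
Stacked bars of the percent of IgG receptor UMIs that came from Fcgr2b, Fcgr1, Fcgr3 and Fcgr4 in each library of 9 classes (linear axis from 0 to 100). The Fcgr2b part fills most of the B-like, cDC1-like and cDC2-like bars, at 95.7%, 84.6% and 80.1% over all libraries, and almost none of the neutrophil-like bars, at 2.28%.

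Fcer2a, the low-affinity IgE receptor, belonged to B cells: 15514 of its 16328 UMIs were in B-like cells. It read 538 CPM in DPBS WT and 315 in Papain WT, and 407 in DPBS KO and 348 in Papain KO there, so that DPBS WT was highest. A UMI was seen in 73.9% of B-like and 1.11% of T-like cells, or 33.9% and 0.181% after thinning. The 3 B-like clusters differed widely in both of their receptors. Cluster 1, led by Iglc3, Fcer2a and Cr2, had 594 CPM of Fcer2a and 82.5 CPM of Fcgr2b, cluster 0 had 357 and 98.1 CPM, and cluster 14, led by Sox5, Nid1, Dnase1l3 and Fcrl5, had 65.1 CPM of Fcer2a (59.3 to 71.2) and 148 CPM of Fcgr2b (140 to 158). The order of the clusters was thus opposite for the 2 genes.

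Outside the B-like cells, Fcer2a reached 35.6 CPM in 41 pDC-like cells and 41.2 CPM in interstitial macrophage-like cells, with 81.4 CPM in DPBS WT, 27.9 in Papain WT and 20.8 in Papain KO. Of the 25 interstitial macrophage-like cells with a UMI of Fcer2a, 92.0% also had Cd79a, against 14.4% of the other 132, and the median cell had 19593 against 13531 UMIs. The summed B cell markers of this class read 2005 CPM in DPBS WT, 724 in Papain WT and 480 in Papain KO, and the difference of Fcer2a between Papain WT and DPBS WT was past the fold (-1.54, -2.30 to -0.80). The part of B cell RNA in this value was not tested.

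Patterns over cells were compared by Pearson's r of log2(CPM + 10) over 46 points, each a class in a library, as a description in which points share libraries and classes. Fcer1g was most like Tyrobp (r = 0.96), the other small ITAM adaptor of myeloid and NK cells, then Map7d1 (0.94) and Myo1f (0.91). Among the genes most like Fcer2a were the B cell genes Cr2 (0.98) and Vpreb3 (0.97). Fcgr1 was most like Msr1 (0.93), a scavenger receptor, Trem2 (0.92) and Idh1 (0.90), and among the genes most like Fcgr2b were Ehd4 (0.89) and Ctsc (0.89). Fcgr3 was most like Sirpb1c, Pgd and Rab31 (0.92 each), and Fcgr4 was most like Rpl3l (0.97), 6430548M08Rik (0.96) and Cdc42ep2 (0.94). Between members, Fcer1g and Fcgr3 were closest (0.86), Fcgr3 and Fcgr4 came next (0.73), and Fcgr2b and Fcgr4, neighbours on chromosome 1, had r = 0.21.

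Papain and genotype were compared library against library within each class of at least 20 cells. A pair of gene and class is counted as past the fold where the CPM differed at least 1.5-fold and both libraries together held at least 30 UMIs. Papain against DPBS in WT put 5 of 43 member pairs past the fold upward (11.6%) and 4 downward (9.30%), against 9.01% and 6.09% of the 80252 pairs of all genes. In KO, 7 of 38 were higher (18.4%) and 2 lower (5.26%), against 7.36% and 3.78% of 68425. KO against WT gave 0 higher and 3 lower of 34 after DPBS (8.82% lower), against 4.92% and 7.72% of 67423, and 2 higher and 4 lower of 46 after papain (4.35% and 8.70%), against 4.91% and 7.55% of 80593. The shares lower by genotype lay near the background. The median log2 ratio of the member pairs was 0.00, 0.12, -0.06 and 0.04 in these 4 comparisons, beside 0.02, 0.02, -0.02 and -0.01 for all pairs. The comparisons share libraries, so they are not independent of each other. Of the 27 calls of member pairs, those in T-like cells and several others rest on low levels, given further on.

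Fcgr2b rose in alveolar macrophage-like cells with papain in WT. It read 127 CPM in DPBS WT against 238 in Papain WT, and 132 in DPBS KO against 187 in Papain KO, so that both papain libraries were above both DPBS libraries. The log2 ratio of papain to DPBS was 0.90 in WT (conditional exact 95% interval 0.84 to 0.97) and 0.50 in KO (0.42 to 0.58), the latter under the fold, and KO against WT after papain gave -0.35 (-0.43 to -0.27). A UMI was seen in 73.1%, 80.8%, 70.7% and 84.8% of the cells of the 4 libraries, or in 13.3%, 18.7%, 12.3% and 18.0% after thinning. All 4 clusters of the class were higher in Papain WT than in DPBS WT, from 114 to 235 CPM in cluster 2 and from 148 to 242 in cluster 7, and from 68.8 to 185 and from 201 to 289.5 CPM in clusters 20 and 21, which were led by cell cycle genes such as Cdk1 and Ccnb1. In KO cluster 2 went from 116 to 180 CPM and cluster 7 from 172 to 196, while cluster 21 went the other way, from 237 to 194.5 CPM (-0.29, -0.60 to 0.01), and cluster 20 had under 20 cells in a library.

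Beside this, markers of other cells moved in the same class: the summed interstitial macrophage markers read 67.6 CPM in DPBS WT and 415 in Papain WT, and the summed B cell markers 60.1 and 492 CPM, against 11000 CPM of the former in interstitial macrophage-like and 10080 CPM of the latter in B-like cells of Papain WT. The B cell markers include the immunoglobulin gene Ighm, which alone made up most of the 492 CPM, as given further on. The summed alveolar macrophage markers of the class read 19650 CPM in DPBS WT, 42790 in Papain WT, then 21150 in DPBS KO and 21170 in Papain KO. Their part in the result was not tested. With clusters made without integration, the log2 ratio in WT was 0.59. Fcgr4 went the other way in these cells, from 76.5 to 61.8 CPM in WT and from 88.3 to 62.3 CPM in KO, under the fold in both genotypes (-0.31, -0.42 to -0.20, and -0.50, -0.63 to -0.38).

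**Figure D4:**
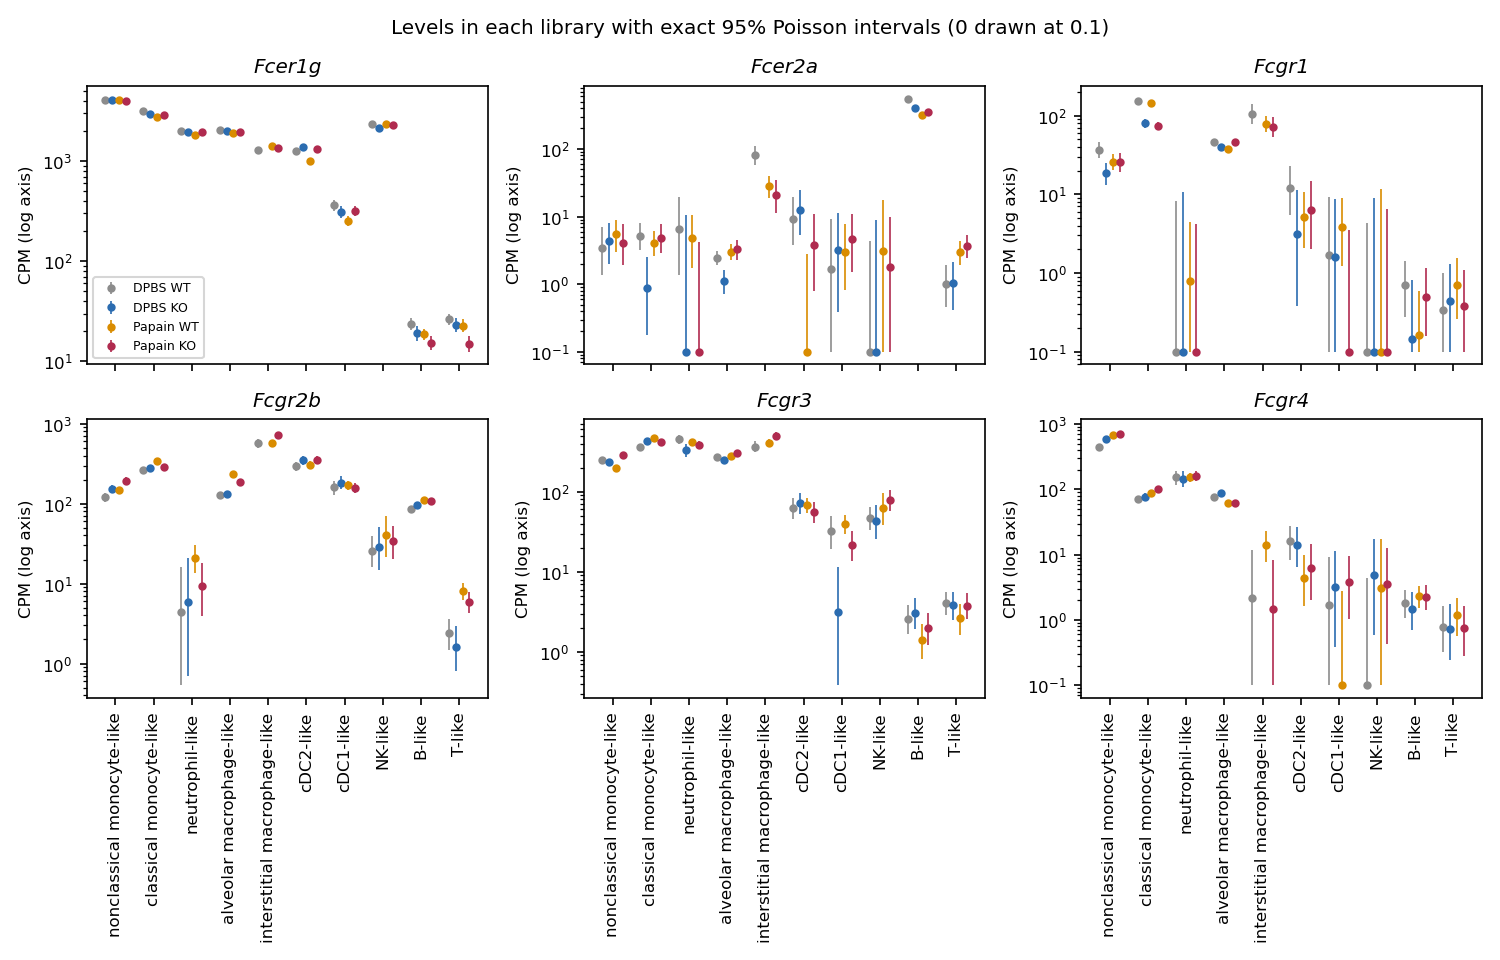
CPM of Fcer1g, Fcer2a, Fcgr1, Fcgr2b, Fcgr3 and Fcgr4 in each class (log axis, 0 drawn at 0.1), as 4 points for the libraries with exact 95% Poisson intervals. In classical monocyte-like cells the 2 KO points of Fcgr1 (79.4 and 73.6 CPM) lie below the WT points (151 and 143 CPM), and in alveolar macrophage-like cells the papain points of Fcgr2b (238 and 187 CPM) lie above the DPBS points (127 and 132 CPM).

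Fcgr4 rose with papain in WT nonclassical monocyte-like cells, from 443 to 678 CPM, a log2 ratio of 0.61 (0.50 to 0.73). The fold is narrowly passed: the ratio was 0.57 with clusters made without integration and 0.58 as a mean over cells, both under it. In KO the change from 582 to 717 CPM gave 0.30 (0.19 to 0.41), and DPBS KO was already above DPBS WT (0.39, 0.27 to 0.52). Fcgr4 took 52.0% of the IgG receptor UMIs of this class in DPBS WT and 64.8% in Papain WT, and 59.0% in DPBS KO and 58.6% in Papain KO. Fcgr3 in the same cells, at 252, 195, 234 and 288 CPM, passed the fold in no comparison, the largest being KO against WT after papain (0.56, 0.39 to 0.73).

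Fcer2a fell with papain in WT B-like cells, from 538 to 315 CPM, a log2 ratio of -0.77 (-0.83 to -0.71). In KO it went from 407 to 348 CPM (-0.23, -0.30 to -0.15), and DPBS KO was below DPBS WT (-0.40, -0.47 to -0.34). The make-up of the class moved with it: cluster 1, where Fcer2a is highest, held 63.9% of B-like cells in DPBS WT against 41.5% in Papain WT, and 32.4% in DPBS KO against 38.6% in Papain KO, and cluster 14, where it is lowest, held 4.10%, 11.3%, 5.04% and 8.20%. Within clusters 1 and 0, Fcer2a differed between Papain WT and DPBS WT by -0.25 (-0.32 to -0.17) and -0.50 (-0.60 to -0.39), neither past the fold, and within cluster 14 it went from 109 to 30.5 CPM (-1.85, -2.24 to -1.45). As a mean over cells, the ratio of the whole class was -0.54 and no longer past the fold. Fcgr2b in B-like cells differed by 0.38 (0.25 to 0.50) in the same comparison, and rose from 102 to 159 CPM in cluster 14 (0.64, 0.34 to 0.95).

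Between KO and WT libraries, 1 member was past the fold in the same class after both treatments: Fcgr1 in classical monocyte-like cells. With 1 library a group, genotype and library cannot be told apart here. Fcgr1 read 151 CPM in DPBS WT against 79.4 in DPBS KO (log2 ratio -0.93, -1.14 to -0.72). It read 143 CPM in Papain WT against 73.6 in Papain KO (-0.96, -1.16 to -0.75), while papain against DPBS gave -0.08 in WT and -0.11 in KO. A UMI was seen in 57.6% and 60.9% of the WT cells and 43.6% and 43.0% of the KO cells, or in 14.0%, 11.9%, 9.0% and 7.04% after thinning. No other IgG receptor and not Fcer1g passed the fold by genotype in these cells: Fcgr3 read 362, 465, 431 and 424 CPM and Fcgr2b 261, 339, 283 and 284 CPM. The summed classical monocyte markers read 6766 CPM in DPBS WT, 7699 in Papain WT, then 5344 in DPBS KO and 4925 in Papain KO, also lower in both KO libraries, and their part in the Fcgr1 values was not tested.

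In nonclassical monocyte-like cells Fcgr1 read 36.8 CPM in DPBS WT and 25.7 in Papain WT, and 18.5 in DPBS KO and 25.7 in Papain KO. It passed the fold by genotype after DPBS (-0.99, -1.59 to -0.42) and gave 0.00 after papain ( -0.53 to 0.53). In alveolar macrophage-like cells, at 46.0, 37.8, 39.6 and 45.7 CPM, it passed in no comparison.

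**Figure D5:**
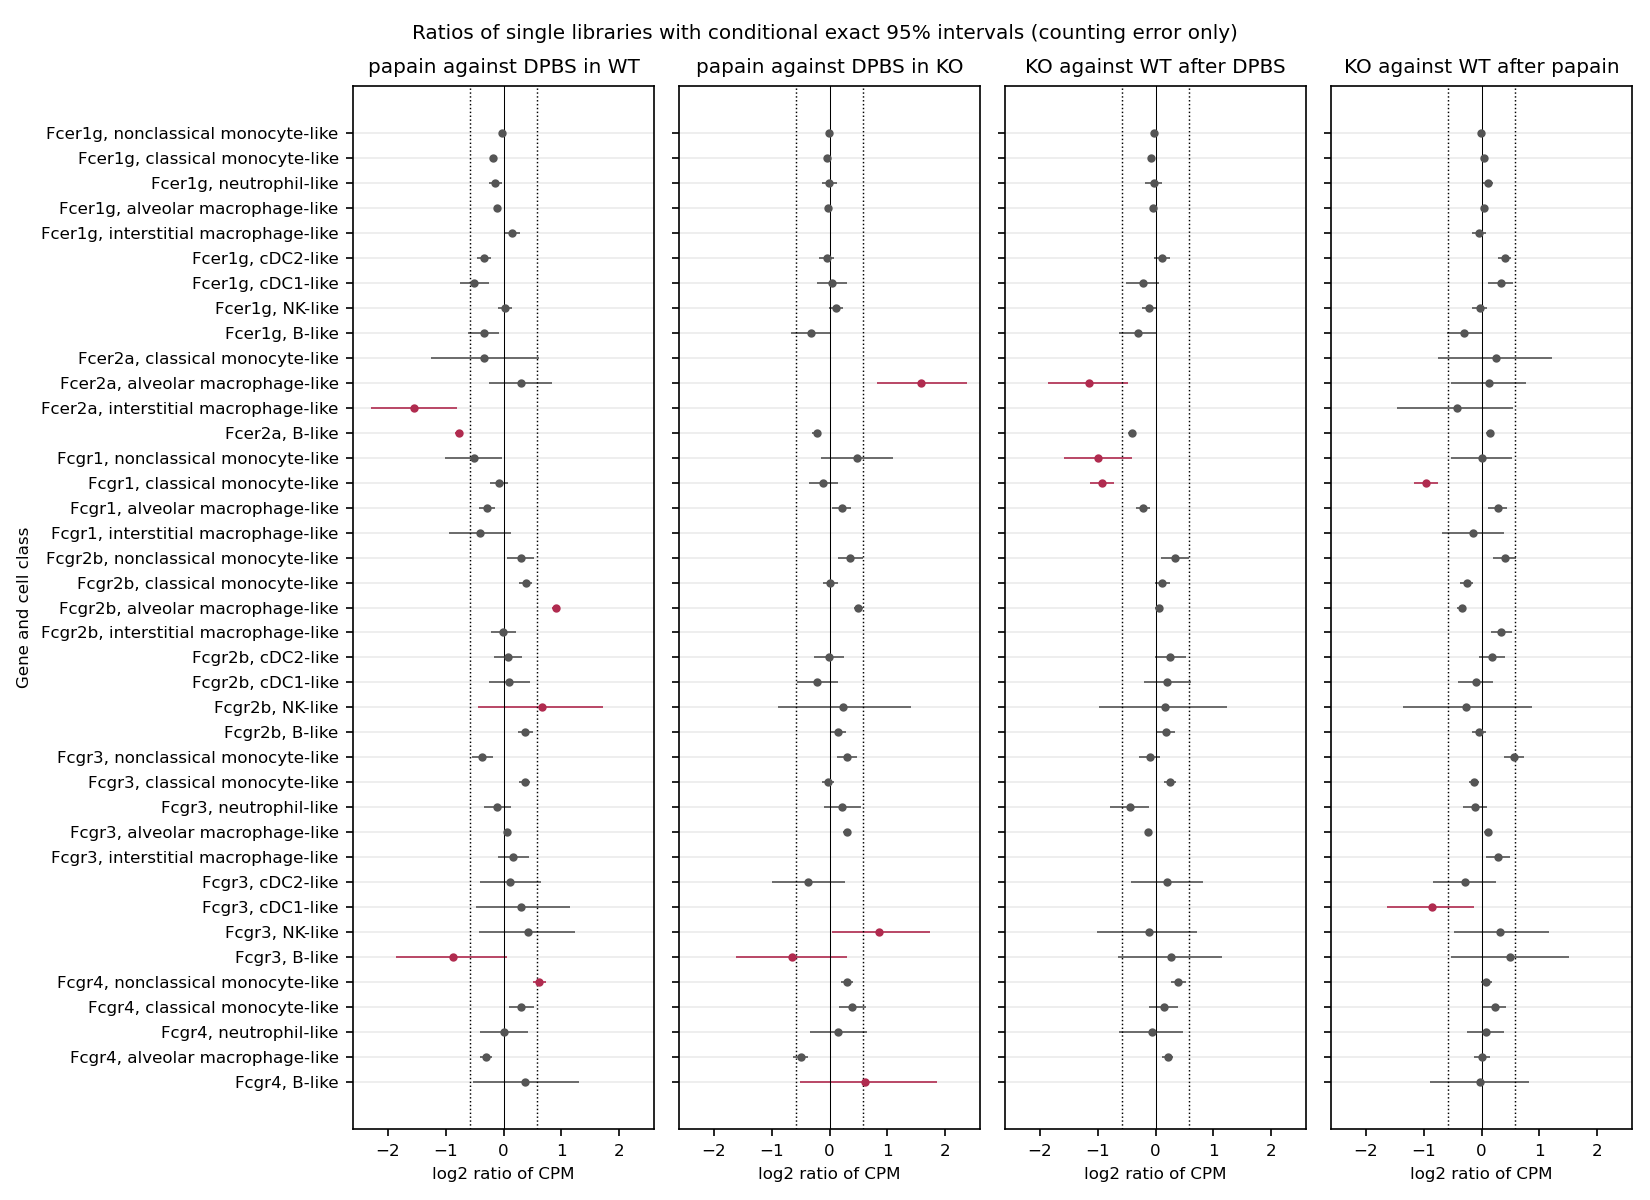
Log2 ratio of CPM for each pair of member and class with at least 30 UMIs in the compared libraries (points, with conditional exact 95% intervals), in 4 panels for the 4 comparisons, with T-like and ILC2-like cells and pairs measured in 1 comparison left out, and with dotted lines at 1.5-fold and red points past them. Fcgr1 in classical monocyte-like cells is red in both genotype panels (-0.93 and -0.96), and Fcer1g in monocyte-like, macrophage-like, neutrophil-like and NK-like cells lies near 0 in all panels.

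Fcer1g itself did not pass the fold in any monocyte-like, macrophage-like, neutrophil-like, dendritic or NK-like class. Its log2 ratios there ran from -0.51 in cDC1-like cells with papain in WT to 0.40 in cDC2-like cells for KO against WT after papain, and from -0.18 to 0.15 in the monocyte-like, macrophage-like, neutrophil-like and NK-like classes. Over whole libraries its level was 1281 CPM in DPBS WT against 1057 in Papain WT, and 1374 in DPBS KO against 1001 in Papain KO, a figure that also carries the mix of cells.

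The remaining pairs past the fold had few UMIs or low levels. In NK-like cells, Fcgr3 went from 18 to 44 UMIs with papain in KO (43.3 to 78.5 CPM, log2 ratio 0.86, 0.04 to 1.74) and Fcgr2b from 22 to 13 UMIs in WT (25.8 to 40.8 CPM, 0.66, -0.45 to 1.71). Fcgr2b in neutrophil-like cells held 26 UMIs in Papain WT against 8 in Papain KO (-1.16, -2.52 to 0.02), and Fcgr3 in cDC1-like cells 52 and 23 UMIs (-0.86, -1.63 to -0.12). Levels under 27 CPM carried Fcer1g in T-like cells, where cluster 15.2 also differed between the libraries, and levels under 9 CPM carried Fcer2a, Fcgr2b and Fcgr3 in T-like cells, Fcer2a in alveolar macrophage-like and Fcgr3 and Fcgr4 in B-like cells. In T-like cells Fcgr2b went from 2.38 to 8.09 CPM in WT and from 1.63 to 5.80 CPM in KO, and the summed B cell markers went from 287 to 502 and from 192 to 430 CPM in the same libraries. Ighm, one of these markers, alone read 269 CPM in T-like cells over all libraries, so the sum rests largely on it. Of T-like cells with a UMI of Fcgr2b, 23.1% had Cd79a, against 4.92% of the others.

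The genes that act with these receptors were taken as 6 lists. Of 20 genes of ITAM signalling, papain put 26 of 192 pairs up and 3 down in WT (13.5% and 1.56%) against 9.01% and 6.09% of the pairs of all genes, and 14 of 168 up and 3 down in KO (8.33% and 1.79%), against 7.36% and 3.78%. KO against WT put 7 up and 10 down of 165 after DPBS (4.24% and 6.06%), against 4.92% and 7.72% of all pairs, and 5 up and 18 down of 195 after papain (2.56% and 9.23%), against 4.91% and 7.55%. Tyrobp, the most abundant, read 6675 CPM in neutrophil-like, 4116 in classical monocyte-like and 2914 in NK-like cells. Prkcd, a kinase downstream of the receptors, rose in alveolar macrophage-like cells from 198 to 309 CPM in WT (0.64, 0.59 to 0.70) and in interstitial macrophage-like cells from 201 to 468 CPM (1.22, 0.89 to 1.55). It was lower in Papain KO than in Papain WT in both (-0.59 and -0.80). The median of the list in alveolar macrophage-like cells with papain in WT was -0.06, the same as that of all genes there.

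Syk, the kinase that docks on the phosphorylated ITAM, read 528 CPM in neutrophil-like cells over all libraries and rose with papain in both genotypes in cDC1-like, NK-like and T-like cells. In NK-like cells Syk went from 59.9 to 91.0 CPM in WT and from 43.3 to 73.1 CPM in KO. In T-like cells it went from 3.29 to 11.1 CPM in WT, beside the B cell markers above. Of 10 measured inhibitory partners, papain put 8 pairs up and 9 down of 92 in WT (8.70% and 9.78%, against 9.01% and 6.09% of all pairs) and 7 up and 3 down of 79 in KO (8.86% and 3.80%, against 7.36% and 3.78%). KO against WT put 2 up and 9 down of 80 after DPBS (2.5% and 11.2%, against 4.92% and 7.72%) and 4 up and 5 down of 91 after papain (4.40% and 5.49%, against 4.91% and 7.55%). Inpp5d, the phosphatase SHIP-1 that Fcgr2b recruits, rose in B-like cells with papain in WT from 169 to 262 CPM (0.63, 0.55 to 0.72). Cd300a, another inhibitory receptor, rose in alveolar macrophage-like cells from 33.0 to 51.7 CPM in WT (0.65, 0.51 to 0.78) and was at 33.3 CPM in Papain KO. The median of this list in alveolar macrophage-like cells with papain in WT was -0.04, beside -0.06 for all genes. In the same comparison Inpp5d also passed the fold upward in NK-like cells. Ptpn6 passed it downward in cDC2-like and cDC1-like cells, Csk in ILC2-like and Cd300a in T-like cells.

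Among the other receptors that signal through Fcer1g, 8 genes, KO against WT put 8 pairs up and 2 down of 21 after DPBS (38.1% and 9.52%, against 4.92% and 7.72% of all pairs) and 5 up and 0 down of 27 after papain (18.5% and 0%, against 4.91% and 7.55%). Papain put 5 up and 3 down of 27 in WT (18.5% and 11.1%, against 9.01% and 6.09%) and 0 up and 1 down of 22 in KO (0% and 4.54%, against 7.36% and 3.78%). Clec4e, a receptor for fungal and mycobacterial glycolipids, read 82.3 CPM in classical monocyte-like cells of DPBS WT, against 220.4 in DPBS KO (1.42, 1.23 to 1.61) and 201 in Papain WT (1.29, 1.11 to 1.47). Clec4d went from 34.0 CPM in DPBS WT to 80.6 in DPBS KO and 78.6 in Papain WT, and Clec4n from 25.7 to 51.9 and 40.1 CPM. In these cells DPBS WT was low for all 3 receptors, which were past the fold in the opposite direction to Fcgr1 by genotype after DPBS, and none passed the fold by genotype after papain. The median log2 ratio of the list in these cells was 0.93 for papain in WT and 1.13 for KO against WT after DPBS, beside 0.02 and -0.06 for all genes.

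Of 13 other immunoglobulin receptors and handlers, papain put 13 pairs up and 9 down of 55 in WT (23.6% and 16.4%, against 9.01% and 6.09% of all pairs) and 11 up and 3 down of 40 in KO (27.5% and 7.50%, against 7.36% and 3.78%). KO against WT put 5 up and 10 down of 41 after DPBS (12.2% and 24.4%, against 4.92% and 7.72%) and 9 up and 5 down of 53 after papain (17.0% and 9.43%, against 4.91% and 7.55%). Fcmr, the IgM receptor, fell in WT B-like cells from 1065 to 671 CPM (-0.66, -0.71 to -0.62), in the cells and the direction of Fcer2a. Lgals3, which also binds IgE, rose in interstitial macrophage-like cells from 2025 to 4124 CPM (1.03, 0.92 to 1.13). Of 8 heavy chain constant genes, which include those of IgE and IgG and also of IgM, IgA and IgD, papain put 8 pairs up and 7 down of 27 in WT (29.6% and 25.9%, against 9.01% and 6.09% of all pairs) and 12 up and 1 down of 20 in KO (60.0% and 5.0%, against 7.36% and 3.78%). KO against WT put 0 up and 10 down of 19 after DPBS (0% and 52.6%, against 4.92% and 7.72%) and 6 up and 5 down of 29 after papain (20.7% and 17.2%, against 4.91% and 7.55%). Ighm led the list, and it read 25.6 CPM in alveolar macrophage-like cells of DPBS WT and 444 CPM in those of Papain WT. The summed B cell markers of this class include Ighm, so their rise is not separate evidence. Igha in B-like cells went from 2.65 to 137 CPM with papain in KO and was at 28.9 and 28.8 CPM in the WT libraries. Both genes were highest in plasma-like cells, with 126300 CPM of Ighm and 35880 CPM of Igha over all libraries. B-like cells had 3361 and 52.4 CPM. Plasma-like cells numbered 6, 25, 3 and 11 by library. The part of plasma cell RNA in the values and counts of this list was not tested.

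Of 12 effector genes of basophils and mast cells, papain put 12 pairs up and 16 down of 62 in WT (19.4% and 25.8%, against 9.01% and 6.09% of all pairs) and 14 up and 2 down of 48 in KO (29.2% and 4.17%, against 7.36% and 3.78%). KO against WT put 4 up and 13 down of 46 after DPBS (8.70% and 28.3%, against 4.92% and 7.72%) and 14 up and 9 down of 61 after papain (22.9% and 14.8%, against 4.91% and 7.55%). Most of these calls were in classes other than ILC2-like, which held 4 of the mast-type barcodes. In ILC2-like cells Hdc was past the fold in all 4 comparisons, at 131.5, 4.99, 0 and 119 CPM. The mast-type barcodes in this class held 39 Hdc UMIs in DPBS WT and 16, 4 and 28 in Papain KO. These were most of its Hdc UMIs in both libraries, and values without these barcodes are not given. Alox5ap, which feeds leukotriene synthesis, read 1637 CPM in neutrophil-like cells, and Ltc4s 542 CPM in alveolar macrophage-like cells. The chemokine Ccl4 read 1071 CPM in NK-like cells of DPBS WT, 2184 in Papain WT, then 524 in DPBS KO and 1150 in Papain KO, and rose there with papain in both genotypes (1.03, 0.88 to 1.17, and 1.13, 0.91 to 1.36). With papain in WT it also passed the fold upward in interstitial macrophage-like cells. It passed downward in nonclassical monocyte-like, neutrophil-like, cDC2-like, B-like and T-like cells. With papain in KO it passed upward in all of these but cDC2-like and interstitial macrophage-like cells, and nowhere downward.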

How the data were processed

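Single-cell RNA-seq of 4 libraries was analysed, with 1 library in each group. The deposited files hold raw UMI counts per gene and barcode, which the authors made with Cell Ranger on build mm10, as the submitters' processing notes name them without a version, and the matrix headers give software version 3.1.0. Nothing in these values had been normalized.

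Barcodes with more than 200 genes and under 15% mitochondrial UMIs were kept. Doublets were called with Scrublet (scanpy 1.11.5, Python 3.11.15) at 0.8% per 1000 barcodes and removed, which took 267 to 557 barcodes a library. The cells were integrated and clustered with Seurat 5.3.0 in R 4.3.3 (2000 variable genes, 30 dimensions, Louvain resolution 0.8). The 8 receptor genes, Ift20 and the listed genes that were not class markers were left out of the variable genes. The listed genes Ighm, Ncr1, Klrb1c, Il13, Hdc, Mcpt8 and Prss34 were also class markers and were not left out. Their values are thus not independent of the classes. Clusters were named from fixed marker lists. A cluster stayed unnamed where its best marker score was low or where more of its leading genes marked another class. It also stayed unnamed where a second class scored at least 50% as high. Some unnamed clusters thus held T cell markers, such as 5.0, or neutrophil markers, such as 19.0, and are outside the T-like and neutrophil-like classes. The ratio intervals, not the clustering, were tested on simulated counts.

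UMIs were summed per class and library and given as counts per 1000000 UMIs of the class (CPM) with exact Poisson intervals. Shares of cells have exact binomial intervals, and ratios have conditional exact binomial intervals, all at 95%. These cover counting error only, and no spread between mice could be measured. Shares were also computed after thinning each cell to 1000 UMIs. The genes named in the text were the 8 members, up to 4 genes per list with the most UMIs, and up to 3 genes most alike in pattern to each member with at least 100 UMIs, among genes reaching 50 CPM. Hdc and the genes that lead a cluster were named after their values were seen. Of the genes most alike, 2 are not reported here.

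The members and the lists were chosen with earlier results of these data known. The mast gate, its split from the basophil gate, the setting without gated barcodes and the gate sums without each library were chosen after seeing the data.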

Additional observations from a re-analysis of the deposited data

How the results depend on the processing

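Of the 10 settings tried, none turned the direction of a call. The calls themselves exchanged more than their counts: with clusters made without integration 20 of 23 calls were kept and 8 were new, as a mean over cells 21 of 26 were kept and 7 were new, and with doublets kept 21 of 25 were kept and 6 were new. Counts of calls stayed within 1.5 times the reported ones except as follows. The reported 9 calls for papain in WT became 15 with a minimum of 10 UMIs and 3 with a minimum of 100 UMIs. The 9 for papain in KO became 15 and 1. The 3 for KO against WT after DPBS became 6 with doublets kept and 7 with a minimum of 10 UMIs, and the 6 for KO against WT after papain became 2 with a minimum of 100 UMIs. The minimum sets which pairs are counted, and the cause of the change with doublets kept was not tested. Without the gated barcodes the counts were 9, 7, 3 and 4. TMM factors moved the median of a class by up to 0.19 on the log2 scale (cDC1-like, KO against WT after DPBS). The planned basophil gate took 12 barcodes in place of a cluster. Fcgr1 in classical monocyte-like cells ran from -0.85 to -0.94 after DPBS and from -0.89 to -1.03 after papain over all settings, and Fcgr2b in alveolar macrophage-like cells with papain in WT from 0.59 to 0.95. No paired analysis was possible because the labels number no replicates and each group had 1 library. A model with genotype and treatment as additive terms over the 4 libraries was not run. The depth limits Fcgr1, Fcgr3 and Fcgr4 in NK-like, T-like and B-like cells and all values of Fcer1a and Ms4a2, which rest on few UMIs.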
